A study of Mus musculus with 6 samples.

Results

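IRF8 binding was compared between resting macrophages and macrophages exposed to IL-4 for 1 h. The members are the ChIP-seq peaks of the 2 IRF8 samples, 37525 in control and 42076 after IL-4, or 79601 of the 134964 peaks in the 6 lists of the series. A peak was shared when it overlapped a peak of the other list by at least 1 bp, and otherwise control-only or IL-4-only. Both samples were wild-type mouse bone marrow-derived macrophages (BMDMs), from animals aged 8 to 12 weeks, grown for 6 days in L929 supernatant as the source of M-CSF. The control, labelled veh, received no IL-4, and the other culture received IL-4 at 20 ng/ml. The cells were crosslinked by DSG and then formaldehyde, before immunoprecipitation with an antibody to IRF8. With 1 sample per condition there are no replicates, no spread and no test of IL-4. All intervals are Wilson 95% intervals over peaks and cover counting error only. The number of reads per library was not given in the sources used here, so depth is unknown.

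IRF8 is a transcription factor of the interferon regulatory factor family that myeloid cells need to form monocytes, dendritic cells and macrophages. On its own it binds DNA weakly, and it usually joins a partner: the Ets factor PU.1 on an Ets-IRF composite element, another IRF on an interferon-stimulated response element (ISRE), or an AP-1 dimer on an AP-1-IRF composite element. IL-4 binds its receptor and activates the kinases JAK1 and JAK3 and through them STAT6, which enters the nucleus and favours palindromes of TTC and GAA with a spacer of 4 bases.

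After IL-4, IRF8 was found at 12804 places where the control list had no peak, and 8043 control peaks had no counterpart after IL-4. These were 30.4% of the IL-4 peaks and 21.4% of the control peaks. STAT6-type sites stood in 11.9% of IL-4-only and 3.94% of control-only peaks, and most of the highest-scoring IL-4-only peaks had such a site. Of all IL-4-only peaks, with or without a site, 14.5% lay at promoters, against 8.22% of control-only peaks. Genes that collected several IL-4-only peaks included Socs1, the feedback inhibitor of JAK kinases, with 9 IL-4-only and 0 control-only peaks.

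The sequences below were chosen to show what the classes look like at base level: high-scoring intronic or intergenic peaks of each class with an IRF site, then IL-4-only peaks with a STAT6-type site. Each is 200 bases around the peak centre, plus strand, mm10, read from the reference genome. Capitals mark an Ets-IRF composite (GGAANNGAAA), an ISRE core (GAAANNGAAA) or a STAT6-type site (TTCNNNNGAA), on either strand. Matches of different words may overlap.
Shared, chr1:148903183-148903382, intergenic, nearest gene Pla2g4a: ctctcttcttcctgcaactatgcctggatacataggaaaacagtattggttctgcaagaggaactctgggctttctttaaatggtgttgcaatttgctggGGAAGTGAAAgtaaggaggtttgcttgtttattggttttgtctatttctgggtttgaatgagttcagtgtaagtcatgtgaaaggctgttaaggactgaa
Shared, chr2:50841986-50842185, intergenic, nearest gene Gm13498: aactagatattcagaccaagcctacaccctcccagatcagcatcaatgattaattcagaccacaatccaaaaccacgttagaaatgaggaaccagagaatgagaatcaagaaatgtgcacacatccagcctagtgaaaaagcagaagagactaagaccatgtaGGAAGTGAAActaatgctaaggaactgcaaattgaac
Control-only, chr4:98110005-98110204, intron, nearest gene Tm2d1: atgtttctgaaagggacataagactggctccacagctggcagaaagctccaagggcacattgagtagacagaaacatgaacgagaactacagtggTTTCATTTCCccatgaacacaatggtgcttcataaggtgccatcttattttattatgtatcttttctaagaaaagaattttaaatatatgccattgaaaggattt
IL-4-only, chr8:54487054-54487253, intergenic, nearest gene Spcs3: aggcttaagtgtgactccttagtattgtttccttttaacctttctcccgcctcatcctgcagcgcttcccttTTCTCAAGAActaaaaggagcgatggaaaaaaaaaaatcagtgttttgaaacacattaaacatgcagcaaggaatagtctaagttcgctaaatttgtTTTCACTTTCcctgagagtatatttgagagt
IL-4-only, chr12:104230976-104231175, intron, nearest gene Serpina3f: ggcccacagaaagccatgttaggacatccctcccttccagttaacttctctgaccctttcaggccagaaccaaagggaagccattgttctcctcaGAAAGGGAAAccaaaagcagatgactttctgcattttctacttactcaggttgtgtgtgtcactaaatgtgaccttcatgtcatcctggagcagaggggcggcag
IL-4-only, chrX:105917067-105917266, intron 1 of 34, Atrx: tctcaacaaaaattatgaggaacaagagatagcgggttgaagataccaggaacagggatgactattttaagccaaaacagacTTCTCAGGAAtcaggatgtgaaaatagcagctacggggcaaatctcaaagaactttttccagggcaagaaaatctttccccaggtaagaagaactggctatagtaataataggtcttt
IL-4-only, chr9:52271922-52272121, intergenic, nearest gene Zc3h12c: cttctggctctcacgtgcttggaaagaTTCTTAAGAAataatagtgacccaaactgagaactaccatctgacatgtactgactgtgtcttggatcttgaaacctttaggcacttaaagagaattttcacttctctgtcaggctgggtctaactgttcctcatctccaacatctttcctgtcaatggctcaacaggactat
IL-4-only, chr16:10695070-10695269, intron of a neighbouring transcript, nearest start Socs1: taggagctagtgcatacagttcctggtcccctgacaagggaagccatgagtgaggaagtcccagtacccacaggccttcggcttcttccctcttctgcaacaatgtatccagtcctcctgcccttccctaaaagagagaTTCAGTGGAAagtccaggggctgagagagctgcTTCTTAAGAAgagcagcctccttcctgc
The shared pair near Pla2g4a and Gm13498 scored 323 and 310 after IL-4 and carried the Ets-IRF element. The control-only peak near Tm2d1 also carried it, at a score of 21.3. Of the IL-4-only peaks, the one near Spcs3 held an ISRE core and a STAT6-type site within the same window, and scored 53.5. The window near Socs1 held a pair of STAT6-type matches.

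The deposited score was taken as −log10 of a q-value or p-value, inferred from its values. It rises with depth and is not a coverage. Peaks present in 1 list were mostly weak. IL-4-only peaks had a median score of 4.99 and control-only peaks 5.33, against 14.9 and 13.7 for the shared peaks of the IL-4 and control lists. The classes differed in their upper ends. Of the IL-4-only peaks 1310 scored 10 or more and 154 scored 20 or more, while 671 and 30 control-only peaks did so. The highest control-only score was 26.7, and 58 IL-4-only peaks lay above it, up to 101. Median widths were 208 bp for IL-4-only, 183 bp for control-only, and 333 and 297 bp for shared peaks in the IL-4 and control lists. When each list was cut to its 37525 best peaks, 9494 were IL-4-only and 9243 control-only, so the number of IL-4-only peaks depends on how long the IL-4 list is.

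**Figure D1:**
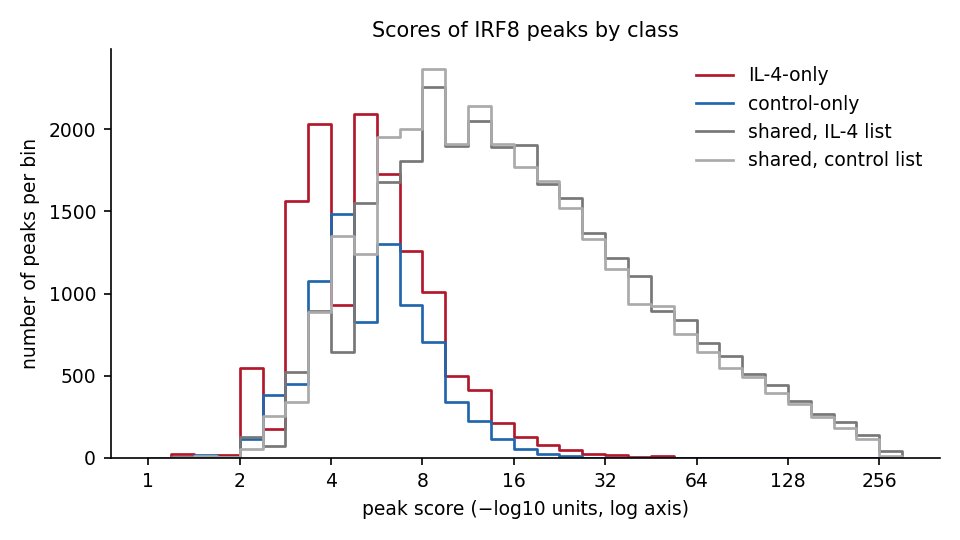
Number of IRF8 peaks (y axis) by peak score (x axis, −log10 units on a log axis) for IL-4-only, control-only and shared peaks of each list. The IL-4-only and control-only peaks crowd at low scores, with medians of 4.99 and 5.33, and the shared peaks extend to 323.

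Few peaks sat at the rim of the overlap rule. A control peak lay within 10 bp of 40 IL-4-only peaks (median score 4.89) and within 200 bp of 653, or 5.10%. An IL-4 peak lay within 10 bp of 45 control-only peaks (median score 4.61) and within 200 bp of 616, or 7.66%. On the inside, 47 shared control peaks overlapped their partner by under 10 bp and had a median score of 4.97. Many differing peaks had neighbours further out: a peak of the other list lay within 10000 bp of 52.6% of IL-4-only and 62.0% of control-only peaks.

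Over all annotations, STAT6-type sites were more frequent in IL-4-only peaks than in the other classes. At promoters the classes lay within each other's counting intervals, at 5.13% of IL-4-only, 4.24% of control-only and 5.49% of IL-4-list shared peaks. In windows of 200 bp around the centre, TTCNNNNGAA stood in 1518 of 12802 IL-4-only peaks, or 11.9% (11.3 to 12.4). It stood in 317 of 8043 control-only peaks, or 3.94% (3.54 to 4.39). The shared peaks lay between, with 7.06% (6.77 to 7.36) in the IL-4 list and 6.65% (6.37 to 6.94) in the control list. Windows 2000 bp downstream of the peaks held the site at 5.52% for IL-4-only and 5.40% for control-only peaks, so the IL-4-only share was above this level and the control-only share below it. The difference between both classes was 7.92 percentage points (7.21 to 8.62). This contrast was not one of the planned main results. With a spacer of 3 bases (TTCNNNGAA, the form that other STATs favour), a variant added after the data were seen, the shares were closer, 8.44% and 5.72%, a difference of 2.73 percentage points.

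The share of IL-4-only peaks with a STAT6-type site was larger at each higher range of scores. It was 8.44% (7.80 to 9.13) below a score of 5, 11.6% (10.7 to 12.6) from 5 to under 10, 25.8% (23.4 to 28.4) from 10 to under 20 and 62.3% (54.5 to 69.6) at 20 or more. Control-only peaks gave 4.23%, 3.82%, 2.81% and 6.67% in the same ranges, the last from 2 of 30 peaks. At scores of 20 or more, shared peaks of the IL-4 list held the site in 8.64%. Of the 58 IL-4-only peaks that scored above every control-only peak, 41 had it, or 70.7% (58.0 to 80.8).

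**Figure D2:**
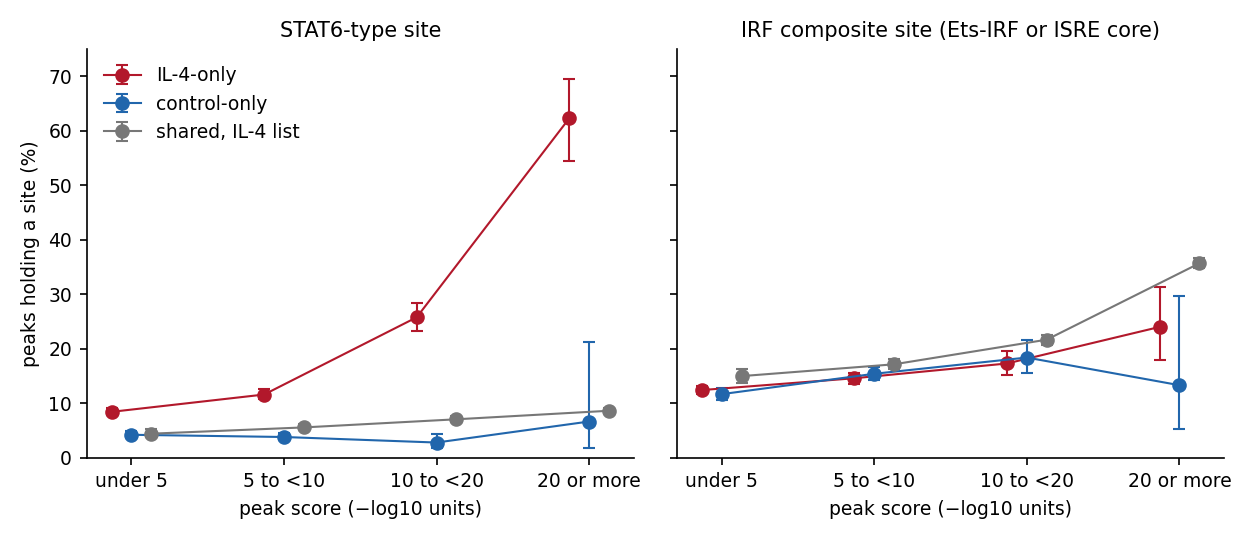
Share of peaks holding a STAT6-type site (left) or an IRF composite site (right) on the y axis, in %, by range of peak score on the x axis, with points for IL-4-only, control-only and shared peaks of the IL-4 list and bars for Wilson 95% intervals. The STAT6-type share of IL-4-only peaks climbs from 8.44% to 62.3%, while IL-4-only and control-only peaks have overlapping intervals for the IRF site share at every range.

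Counted together, Ets-IRF composites and ISRE cores did not separate IL-4-only from control-only peaks. An Ets-IRF composite or ISRE core stood in 13.8% (13.2 to 14.5) of IL-4-only and 13.9% (13.2 to 14.7) of control-only peaks, a difference of -0.096 percentage points (-1.07 to 0.862). Shared peaks held one in 25.4% of the IL-4 list and 25.8% of the control list, and windows 2000 bp away in 4.85% to 5.02%. Taken apart, the composite and the core differed in opposite directions. The Ets-IRF composite stood in 7.66% (7.22 to 8.14) of IL-4-only, 8.67% (8.07 to 9.30) of control-only and 16.6% of IL-4-list shared peaks. The ISRE core stood in 6.99% (6.56 to 7.45), 5.96% (5.46 to 6.49) and 10.5%. The AP-1-IRF composite was rare, at 0.297% (0.216 to 0.407) of IL-4-only and 0.572% (0.429 to 0.762) of control-only peaks. Sites for other macrophage factors were less frequent in IL-4-only than in control-only peaks. The Ets word GAGGAAGT stood in 8.61% (8.13 to 9.11) against 10.8% (10.1 to 11.5), the AP-1 word TGACTCA in 9.0% (8.52 to 9.51) against 11% (10.3 to 11.7), and the C/EBP word TTGCNNAA in 10.5% (9.96 to 11) against 13.7% (13 to 14.5). A STAT6-type and an IRF composite site occurred together in 222 IL-4-only (1.73%) and 44 control-only peaks (0.547%), beside 1.64% of IL-4-list shared peaks. Neither site stood in 76.0% of IL-4-only and 82.7% of control-only peaks. A match is a run of letters in a window and not a measured contact.

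At shared peaks the score after IL-4 was close to the control score on average. The 29110 one-to-one pairs had a mean log2 ratio of 0.09 (SD 0.79 over pairs), a median of 0.08, and a higher score after IL-4 in 55.4% of cases. The score was at least 2-fold higher in 3294 pairs, 11.3% of all, and at least 2-fold lower in 2316, or 7.96%. A 4-fold difference was reached by 376 pairs upward and 171 downward. When scores were divided by the median of their list, the mean log2 ratio was 0.20. STAT6-type sites followed the direction here as well. They stood in 3.76% (3.06 to 4.61) of pairs 2-fold or more lower after IL-4, in 4.63% of pairs lower by less, in 7.41% of pairs equal or higher by less than 2-fold, in 14.1% (12.8 to 15.4) of pairs higher by 2-fold to under 4-fold and in 29.5% (25.1 to 34.3) of pairs higher by 4-fold or more. IRF composite sites stood in 19.9% of the pairs 2-fold or more lower and in 21.3% of those 4-fold or more higher.

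**Figure D3:**
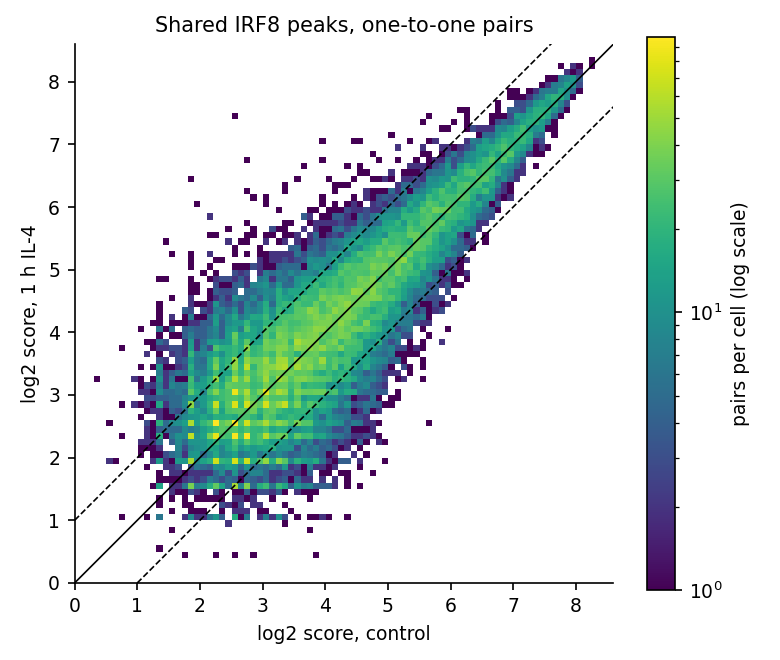
Log2 peak score in control (x axis) and after 1 h of IL-4 (y axis) for the 29110 shared pairs, with colour for the number of pairs per cell on a log scale, a solid line at equal scores and dashed lines at 2-fold. Most pairs lie between the dashed lines, with 3294 on or above the upper and 2316 on or below the lower line.

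Among the 15683 pairs scoring 10 or more in both lists, 822 were 2-fold or more higher and 418 lower. The largest ratio was in intron 1 of Rad23b, a DNA repair factor gene, from 15.5 to 130 (8.37-fold, chr4:55363838-55364408). The next were in intron 1 of Nckipsd, from 12.4 to 98.4, near Slc1a2, a glutamate transporter, from 10.4 to 80.2, and in intron 1 of St8sia1, a sialyltransferase, from 11.5 to 86.8. The peak in intron 1 of Glrx, the redox enzyme glutaredoxin, went from 24.2 to 133. Peaks by Gm16907, Nek10, 3300005D01Rik, Gm20125 and Sh2d7 completed the 10 largest, at 4.94-fold to 6.80-fold. A STAT6-type site stood in 7 of these 10 and in 0 of the 10 with the lowest ratios.

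The 10 lowest ratios were 3.51-fold to 4.51-fold lower after IL-4. The lowest was intergenic by Dbpht2, from 48.0 to 10.6. The promoter peak of Kcne3, a potassium channel subunit, went from 48.3 to 11.9. In intron 1 of Xdh, which encodes xanthine dehydrogenase, the score went from 59.3 to 14.9. Peaks by Fat3, Map10, B3galt2, Dis3, Ap1s2, E030013I19Rik and Ccnb2 made up the rest. An IRF composite site stood in 4 of these 10 and in 6 of the 10 highest.

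Promoters took a larger share of IL-4-only peaks than of the other classes. Of the IL-4-only peaks 1851 were annotated to a promoter, or 14.5% (13.9 to 15.1), against 661 control-only peaks, or 8.22% (7.64 to 8.84), and 6.85% and 6.98% of shared peaks. The number of promoter peaks went from 2719 in control to 3856 after IL-4, a ratio of 1.42, while intron and intergenic peaks both had a ratio of 1.09. Of the IL-4 promoter peaks 48.0% (46.4 to 49.6) had no control counterpart, against 28.6% in introns and 27.9% between genes. In the 5′ UTR the ratio was 1.59, from 145 to 231 peaks. CpG islands were named for 2.21% of IL-4-only and 0.821% of control-only peaks. IL-4-only promoter peaks had a median score of 4.99, the same as IL-4-only intron and intergenic peaks, and control-only promoter peaks 4.61. Their median GC contents were 58.5% and 54%, beside 52.5% for IL-4-list shared promoter peaks and 46.0% for IL-4-only intron peaks. IRF composite sites stood in 6.48% of the IL-4-only promoter peaks. Their STAT6-type share was 5.13% (4.22 to 6.23), against 13% (12.4 to 13.6) in IL-4-only peaks outside promoters. It lay near that of control-only promoter peaks, 4.24% (2.95 to 6.05), and of shared promoter peaks of the IL-4 list, 5.49%. Promoter pairs shared by both lists had a mean log2 ratio of 0.28 (SD 0.77, n = 2018 pairs), with 15.6% higher and 4.71% lower by 2-fold, against 11% and 8.03% in introns. Depth and background of the libraries were not given, and their part in the promoter share was not tested.

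**Figure D4:**
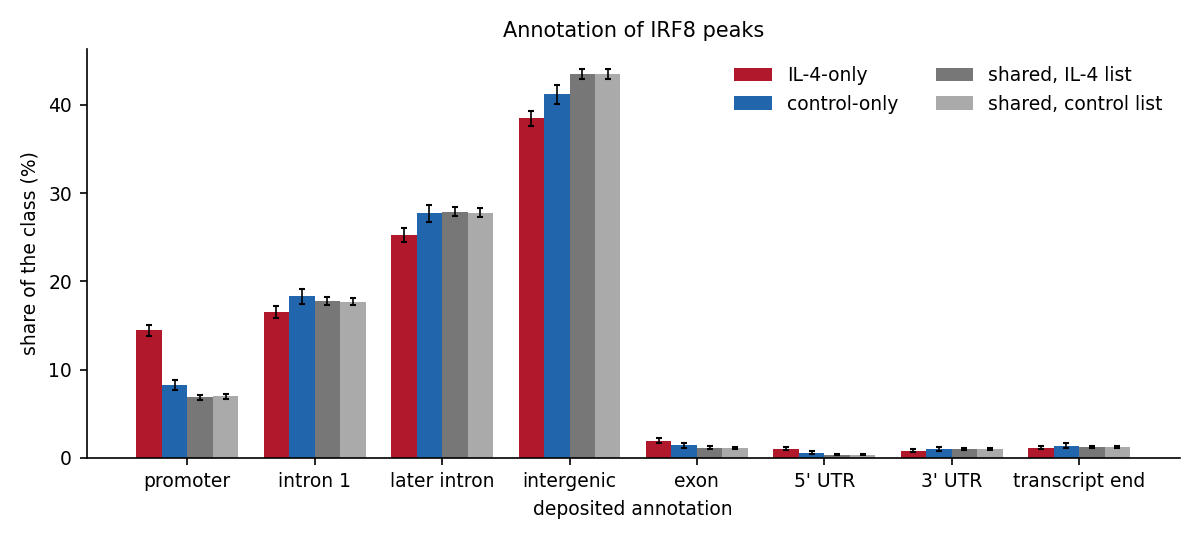
Share of each class of IRF8 peaks (y axis, %) by the deposited annotation (x axis), with bars for IL-4-only, control-only and shared peaks of each list and Wilson 95% intervals. Promoters hold 14.5% of IL-4-only peaks and 6.85% to 8.22% of the other classes.

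Introns held 41.7% of IL-4-only, 46.0% of control-only and 45.6% of IL-4-list shared peaks, and intergenic sequence 38.5%, 41.2% and 43.5%. Intron 1 alone held 16.5%, 18.3% and 17.7%. The median distance to a transcription start site (TSS) was 16881 bp for IL-4-only, 20394 bp for control-only and 21168 bp for IL-4-list shared peaks. Repeats were named for 20.6% (19.9 to 21.3) of IL-4-only and 25.4% (24.5 to 26.4) of control-only peaks. LTR elements made up 8.15% and 10.1%, and LINE elements 5.04% and 6.44%.

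The highest-scoring IL-4-only peak lay in intron 1 of Atrx, a chromatin remodeller (chrX:105916990-105917344, score 101), with the nearest control peak 94103 bp away. Next came an intergenic peak at -103911 bp from the TSS of Zc3h12c (score 64.3), which a gap of 109 bp separated from a control peak. The third lay upstream of Mpp6 (59.3) and the fourth at -3884 bp from the TSS of Aldh1b1, a mitochondrial aldehyde dehydrogenase (58.3). The peak near Spcs3, a signal peptidase subunit, scored 53.5 and also overlapped C/EBPα and JUNB peaks of the IL-4 lists. In intron 1 of P2ry14, a receptor for UDP sugars, the score was 52.6. Peaks at Tmbim1 (51.3), Dmrtb1 (50.7), D430020J02Rik (50.5) and Map3k12 (50.3) followed. Of the 10, 8 held a STAT6-type site, 1 an IRF composite site, 4 overlapped a C/EBPα peak of the IL-4 list and 0 one of the control list.

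The 10 highest-scoring control-only peaks scored 23.8 to 26.7, and 0 of them held a STAT6-type site or an IRF composite site. They lay between genes 43019 bp from the TSS of Dcun1d5 (26.7), at the promoter of the zinc finger gene Zfp827 (26.4, at -298 bp), in intron 1 of Klhl6 (26.2), a gene known from B cells, and by Gja5 (26.0), Ndfip1 (25.9), Gucd1 (25.9), Zfand2a (25.1), Chd9 (24.4), Rdx (24.4) and Lrch3 (23.8). The Klhl6 peak (chr16:19969461-19969747) carried AP-1 and C/EBP words and overlapped C/EBPα and JUNB peaks in both conditions.

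Pdcd1lg2 had the highest IL-4-only promoter peak (chr19:29410665-29411132, score 36.7, centre at -21 bp from the TSS). The gene encodes PD-L2, a T cell inhibitory ligand that marks alternatively activated macrophages. Its peak held a STAT6-type site, which the promoter peaks of Mon1b (22.2), Slain2 (20.8), Zbed6 (20.3) and 1700020M21Rik (19.8) did not. Control-only promoter peaks scored at most 26.4, at Zfp827, followed by Fyttd1 (20.3), Zfp541 (18.6), Arhgap4 (17.8) and Uba6 (15.9).

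The lists assigned peaks to 14114 genes by nearest TSS. Of these 7808, or 55.3%, had 1 or more IL-4-only peaks and 5405, or 38.3%, had 1 or more control-only peaks. Both kinds occurred at 3188 genes, which are 40.8% of the former and 59.0% of the latter. At least 2 IL-4-only and 0 control-only peaks were found at 1199 genes, or 8.5%, and the reverse at 395, or 2.8%. With lists of equal length these counts were 672 and 634. The nearest TSS need not be the gene that a site acts on.

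By raw count, Runx2 and Klf4 had the most IL-4-only peaks, 16 each. Over all IL-4 peaks 30.4% were IL-4-only, so genes with many peaks can rank high at a share near that. At Runx2, a runt-domain factor known from bone, the number of IRF8 peaks went from 10 in control to 21 after IL-4, with 5 control-only peaks. Its IL-4-only peaks were weak, with a median score of 4.49 and a maximum of 10.2, and 14 of the 16 were intronic, with 2 at promoters. Klf4, a zinc finger factor of alternative activation, went from 34 to 46 peaks with 4 control-only, and all 16 of its IL-4-only peaks were intergenic, at a median of 4.66. They lay from -600780 to 42729 bp relative to the TSS. Gm14005 and Gm20125 had 15 each, Pik3r1 (a regulatory subunit of PI3 kinase) and 1700019E08Rik had 13, Zfp608 had 12, and Arhgap18, Bmp2k and Ly86 had 10. Gm20125 had 46 IL-4 peaks in all and 1700019E08Rik had 44. Bmp2k, which encodes a kinase, had 10 IL-4-only against 1 control-only peak, and 5 of its 10 held a STAT6-type site.

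Among the 10 genes with the most IL-4-only and no control-only peaks, Socs1 had the highest summed score of those peaks. It had 5 IRF8 peaks in control and 14 after IL-4. The 9 IL-4-only peaks lay from -594 to 108674 bp relative to the TSS, 7 of them in introns of a neighbouring transcript. Their scores had a median of 13.4. The strongest, chr16:10689723-10690256, scored 34.6, and the promoter peak, chr16:10785996-10786265, scored 13.9. A STAT6-type site stood in 5 of the 9, the promoter peak among them. Maml3, a Notch coactivator, and Atp8b4, a phospholipid flippase subunit, had 10 IL-4-only peaks each, at medians of 5.2 and 4.16, with STAT6-type sites in 0 and 1. Fam198b followed with 8, then Socs6, 1700040N02Rik, 1600029D21Rik and 2410131K14Rik with 7, and Inhba and Ahi1 with 6. Inhba, which encodes the activin A subunit, had peaks of 23.6 and 15.6 at 246891 and 480391 bp from its TSS.

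By raw count, most control-only peaks were found at Zfp386, with 12 of its 45 control peaks, beside 10 IL-4-only peaks. Over all control peaks 21.4% were control-only. Marcks, a membrane substrate of protein kinase C, had 11 (7 IL-4-only), as did Tet2, a DNA demethylation enzyme (4 IL-4-only, 30 peaks before and 23 after), and Foxp1, a forkhead factor (5 IL-4-only, 41 before and 35 after). Tbl1xr1, Calcrl and Rreb1 had 9, and Fli1, Kcnj2 and Btg1 had 8, at Btg1 out of 36 control peaks. At Fli1, an Ets factor gene, 1 IL-4-only peak in an intron scored 23.1, above all 8 control-only peaks, which reached 11.1.

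Genes with control-only and no IL-4-only peaks had fewer. Adk, adenosine kinase, went from 11 to 6 peaks, all 5 control-only peaks being intronic with scores up to 15.3. Fosl2, an AP-1 subunit, went from 13 to 8, with scores of 3.42 to 6.85. Calml3, 1700020N01Rik, Map4k3, Pdzd2, Tnfsf14, Acer3, D8Ertd82e and Nlrp1b had 4 each. The highest of these was at 1700020N01Rik, at 20.3.

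**Figure D5:**
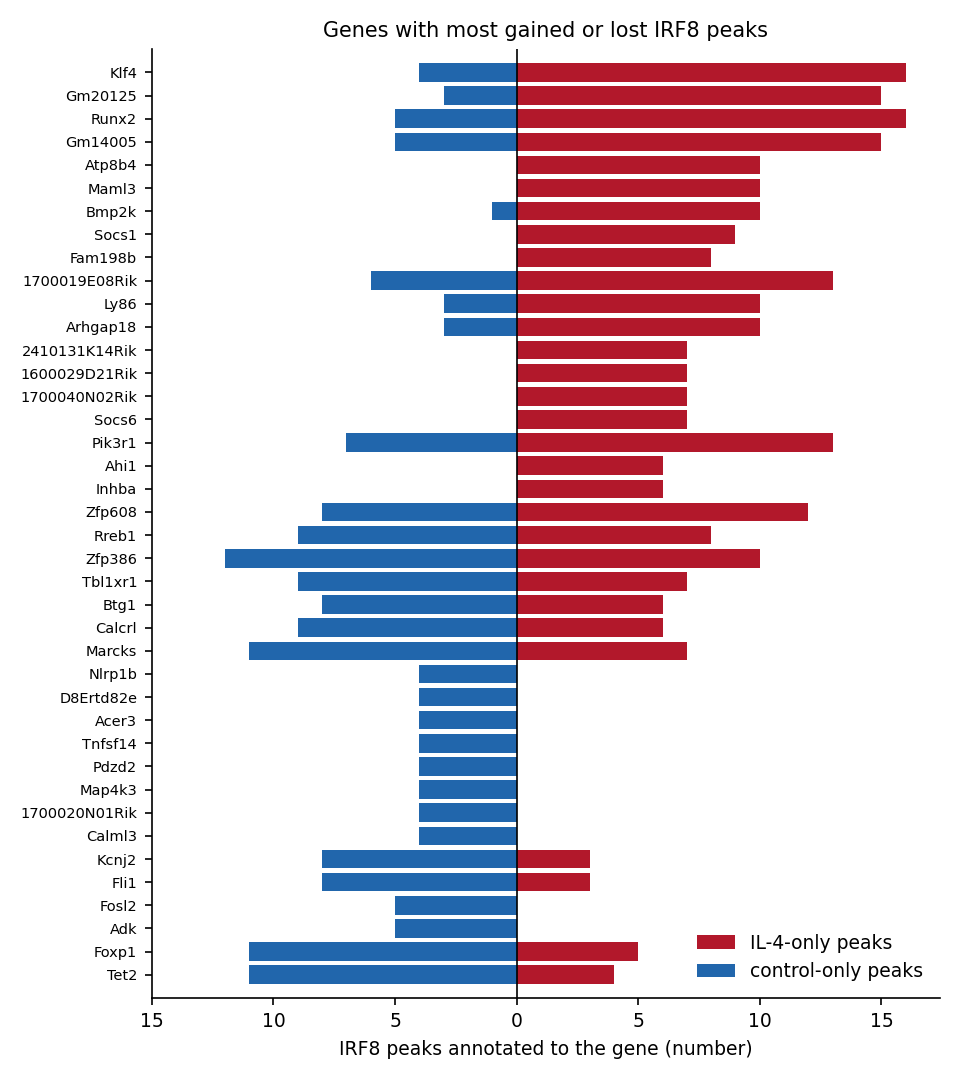
Number of IL-4-only peaks (bars to the right) and control-only peaks (bars to the left) for the genes named for most IL-4-only or control-only IRF8 peaks, sorted by the difference. Klf4 and Runx2 reach 16 IL-4-only peaks and Zfp386 reaches 12 control-only peaks. Counts are not scaled to the number of peaks per gene.

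The IL-4 receptor and STAT6 pathway had 57 peaks in control and 56 after IL-4 at 12 of its 13 genes. Of the IL-4 peaks 19 were IL-4-only (33.9%, against 30.4% of all), and of the control peaks 16 were control-only (28.1%, against 21.4%). Socs1 carried 9 of the 19. Jak1, a receptor kinase, had 4 IL-4-only peaks of at most 5.63 and 2 control-only peaks of up to 19.3. Il13ra1, a chain of the type II receptor, went from 12 to 5 peaks with 6 control-only. Tyk2 had 2 control-only peaks, up to 15.5. STAT6-type sites stood in 6 of the 19, of which 5 were at Socs1, and in 0 of the 16.

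Genes of alternative activation had 114 peaks in control and 140 after IL-4. IL-4-only peaks were 42 (30.0%, near the share of all) and control-only peaks 15 (13.2%, against 21.4%). The highest IL-4-only scores were 36.7 at the promoter of Pdcd1lg2 and 35.0 at -9035 bp from the TSS of Edn1, the gene of endothelin 1, and both peaks held a STAT6-type site. The 16 IL-4-only peaks at Klf4 scored at most 15.9. Irf4, the IRF of alternative activation, had 2 IL-4-only peaks (up to 13.3) and 3 control-only peaks (up to 10.4), and 3 of its 6 shared pairs were 2-fold higher after IL-4. Mrc1, the mannose receptor, had IL-4-only peaks of 19.2 at its promoter and 12.0 further upstream, and 0 control-only peaks. Its 4 shared pairs had a median log2 ratio of -0.25, and 1 of them was 2-fold or more lower after IL-4, from 29.0 to 11.3. Over the whole list 18 of 98 shared pairs were 2-fold or more higher and 7 lower, beside 11.3% and 7.96% of all pairs. Among the 7 were 2 of the 3 pairs at Alox15 and the promoter peak of Mgl2, from 23.1 to 6.33. The 3 activated genes that the study's text names had 20 peaks seen only after IL-4 (30.8%, near the 30.4% of all) and 7 seen only in control (13.2%), and Hbegf had neither kind. The 12 repressed genes it names had 10 peaks only after IL-4 (14.7%) and 14 only in control (19.4%), both below the share of all. Those genes were chosen by the study in these cells, so their counts are not independent evidence.

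At MHC class II and presentation genes 3 of 33 IL-4 peaks were IL-4-only (9.09%, against 30.4% of all) and 8 of 40 control peaks were control-only (20.0%, near the 21.4% of all). Ciita, the class II transactivator, had 1 and 2, H2-D1 a control-only peak of 14.3, Cd74 (the invariant chain) an IL-4-only peak of 13, and Psmb9 1 of each. Interferon-stimulated genes had 77 peaks in each list, with 11 IL-4-only (14.3%) and 9 control-only peaks (11.7%), both below the shares of all. Their largest scores were at Gbp5 (up to 8.67 among control-only peaks), Bst2 (up to 9.10 among IL-4-only peaks) and Ifi203 (9.84, IL-4-only). The median log2 ratio of shared pairs was 0.33 for presentation genes and 0.23 for interferon-stimulated genes, beside 0.08 over all pairs. Over the 15 gene lists this median went from -0.05 at chemokine receptors to 0.33. It was 0.28 at Fc receptors and 0.26 at the IL-4 receptor and STAT6 pathway.

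Inflammatory genes went from 104 to 111 peaks, with 21 IL-4-only (18.9%) and 14 control-only (13.5%). Both lay below the shares of all peaks, 30.4% and 21.4%. Fos had 4 and 2, Tlr4, the receptor for bacterial lipopolysaccharide, 5 and 1, and the inflammasome sensor gene Nlrp3 1 and 3. The chemokine gene Ccl4 had an IL-4-only promoter peak of 10.1. Innate sensors went from 50 to 45 peaks with 7 IL-4-only (15.6%) and 12 control-only (24.0%, against 21.4% of all). Nod1 had 4 IL-4-only peaks of up to 14.0, Tlr8 one of 19.6, and the DNA sensor gene Aim2 a control-only peak of 14.9. Chemokine receptors went from 74 to 70 peaks, with 9 (12.9%) and 13 (17.6%), both below the shares of all peaks. Cx3cr1, the fractalkine receptor, went from 5 peaks to 1, with 4 control-only peaks of at most 8.74, and Ccr3 had 3 peaks seen only after IL-4 and 0 seen only in control.

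Of the 28 IL-4 peaks at Fc receptor genes 5 were IL-4-only (17.9%, against 30.4% of all). Of the 27 control peaks there 4 were control-only (14.8%, against 21.4% of all). Fcgr3 had 2 IL-4-only peaks, up to 22.7, and the inhibitory receptor gene Fcgr2b 2, up to 12.2, with a STAT6-type site in the stronger one of each, whereas Fcgr1, the high-affinity receptor, had 3 control-only peaks, up to 7.11. At lysosomal genes 18 peaks were IL-4-only (18.2%) and 11 control-only (11.8%), both below the shares of all peaks. Ctsk, cathepsin K, had the largest summed score of such peaks, from 3 and 1, and Lamp2, a lysosomal membrane protein, had 4 and 0. Dual-specificity phosphatases had 17 (29.8%, near the share of all) and 9 (17.3%, below the share of all). Dusp6 had an IL-4-only promoter peak of 18.1 and a control-only intergenic peak of 15.9.

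Macrophage lineage factors had 257 peaks in control and 274 after IL-4, with 69 IL-4-only (25.2%) and 50 control-only (19.5%). Maf had 10 and 6, Runx1 6 and 7, and Mef2c 5 and 7. Partner factors of IRF8 had 36 (29.0%) and 27 (23.3%), with 8 and 2 at Jun and 7 and 3 at Ikzf1. The IRF family had 12 (23.5%) and 14 (26.4%), of which Irf2 had 3 and 7 and Irf1 3 and 1. All of these shares stand beside 30.4% and 21.4% over all peaks.

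At Irf8 itself (chr8:120736358-120756694) the lists gave 9 peaks in control and 10 after IL-4, of which 7 were shared. The strongest, at -16245 bp from the TSS, scored 62.6 in control and 53.0 after IL-4. The peak 56435 bp downstream went from 20.1 to 30.3, and that at 27066 bp was 27.5 and 26.4. The median log2 ratio of the 7 pairs was -0.24, ranging from -1.46 to 0.59. The highest IL-4-only score, 18.4, was 95892 bp from the TSS, and the control-only peaks scored 2.88 and 5.82.

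Other factors of the series were less often found at IRF8 peaks present in 1 condition, which also scored lower than the shared peaks. A C/EBPα peak of the same condition overlapped 19.0% (18.4 to 19.7) of IL-4-only, 22.4% (21.5 to 23.4) of control-only and 42.5% of IL-4-list shared IRF8 peaks. With scores of 5 or more the shares were 26.6% of IL-4-only and 27.9% of control-only peaks. The difference between these classes, -3.40 percentage points, was then -1.28, and with lists of equal length -2.06. A JUNB peak of the IL-4 list overlapped 1.34% of IL-4-only and 5.98% of IL-4-list shared peaks, and one of the longer JUNB control list overlapped 2.92% of control-only and 10% of control-list shared peaks. IL-4-only IRF8 peaks with a STAT6-type site overlapped a C/EBPα peak of the control list in 15.9% (14.1 to 17.8) and one of the IL-4 list in 34.5% (32.1 to 36.9). IL-4-only peaks without the site did so in 15.4% (14.7 to 16.1) and 16.9% (16.3 to 17.6). Shared peaks of the IL-4 list did so in 46.0% and 56.6% with the site, and in 42.1% and 41.4% without it. The C/EBPα lists held 24486 and 24612 peaks in control and after IL-4, and the JUNB lists 3940 and 2325.

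Macrophage markers carried IRF8 peaks in both lists, at 9 of 10 genes (42 and 35 peaks in all), with Csf1r at 9 and 9 peaks and Cd68 at 1 and 1. Spi1, the gene of PU.1, was nearest to 0 peaks. Markers of other cells carried peaks at 2 of 6 T cell, 3 of 6 B cell, 2 of 6 neutrophil, 5 of 6 dendritic cell, 1 of 4 erythroid and 2 of 4 fibroblast genes in both lists, and at 3 (control) and 2 (IL-4) of 4 hepatocyte genes, with summed numbers of 3 and 2, 8 and 9, 4 and 5, 21 and 24, 1 and 1, 4 and 7, and 10 and 10 in the same order. Cd3e, Cd8a, Pax5, Ebf1, Elane, Klf1, Alb and Col1a1 had 0 peaks. Other markers had strong ones in both lists. The highest scores in control and after IL-4 were 194.8 and 214 at the B cell gene Ms4a1 and 89.45 and 91.5 at Col1a2. They were 73.4 and 88.7 at Ltf and 53.4 and 69.4 at Ttr. The dendritic cell genes Xcr1 (120.5 and 111.7) and Ccr7 (99.7 and 100.7) also had strong peaks. Peaks do not measure expression, and the part of other cells was not tested.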

How the data were processed

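IRF8 ChIP-seq was available for 1 control and 1 IL-4 sample of wild-type BMDMs. According to the study's methods and the submitters' processing notes, the authors aligned reads with BWA 0.7.10 to mm10, called peaks per sample with MACS2 2.0.10, removed blacklisted peaks and annotated the rest with HOMER 4.2. The notes also name SAMtools 0.1.19. No unit is stated for the score the authors deposited, which was read as −log10 of a q-value or p-value. Libraries were made with either of 2 kits, with no record per sample in the sources used here, so kit, depth and IL-4 cannot be told apart.

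Peaks of both lists were intersected in Python 3.11.15 (pandas 2.3.3, scipy 1.17.1, matplotlib 3.10.9), with at least 1 bp of overlap for shared peaks. For pairs, overlapping peaks were matched in order of overlap length, each peak entering 1 pair only, and a score difference was called at 2-fold. Shares carry Wilson 95% intervals. Overlap, pairing, site search and intervals were checked on simulated data (14 of 14 checks met), against bedtools 2.31.1 among others. Sites were searched on both strands in 200 bp around the centre and 2000 bp downstream with pysam 0.24.0. The GRCm38 sequence was used: 0 peaks ended past a chromosome, 99.5% of promoter peaks lay within 1000 bp of a GENCODE transcript start, and 14 of 79601 peaks lacked a full window. Distances, gene names and annotations are those deposited.

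Named are the 10 highest-scoring IL-4-only and control-only peaks, the 5 highest at promoters, the 10 genes with most peaks of each kind with or without the other kind, the 10 largest rises and falls of pairs scoring 10 or more in both lists, up to 4 members of each of 15 gene lists (198 genes) by summed score of differing peaks, and Irf8. Mrc1, Hbegf, Alox15, Mgl2 and the Socs1, Atrx and Zc3h12c sequences were picked after their values were seen. Sequences are from 2 peaks per class, and 1 of the control-only class is not reported here. The members and lists were chosen with earlier results of these data known. Alternatives changed the overlap, the score limit, list length, chromosomes, promoter and site windows and score scaling.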

Additional observations from a re-analysis of the deposited data

Results flagged for a closer look

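IRF8 went the other way from JUNB in 2 measures, and its median score was lower after IL-4 while that of C/EBPα was nearly equal. The number of peaks after IL-4 over control was 1.12 for IRF8 and 0.59 for JUNB. The median peak width was 1.09 times the control value for IRF8 and 0.916 times for JUNB. The median score was 0.929 times the control value for IRF8 and 1.00 times for C/EBPα. Each factor had 1 sample per condition, so these differences were not tested.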

How the results depend on the processing

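No paired analysis was possible because each condition had 1 sample, and leaving out a replicate was not possible for the same reason. With only peaks scoring 5 or more, IL-4-only peaks numbered 8250, the promoter shares differed by 7.18 percentage points, genes with 2 or more IL-4-only and 0 control-only peaks numbered 744, and the difference in C/EBPα overlap was -1.28 percentage points. With lists of equal length, the mean log2 score ratio was 0.14, the gene counts were 672 (IL-4-only) and 634 (control-only), the C/EBPα difference was -2.06 percentage points and the IRF composite difference turned to 0.521 percentage points. It also turned, to 0.0888 percentage points, when 50% of the shorter peak had to overlap, and its interval held 0 in the main analysis. Centres within 2000 bp of a TSS gave a promoter difference of 7.38 percentage points, and division by the list median a mean log2 ratio of 0.20. The STAT6-type difference was not one of the planned main results, and its alternatives were chosen after seeing the data. It kept its sign in all settings run. It was 2.73 percentage points with a spacer of 3 bases and 5.01 percentage points in 100 bp windows. With scores of 5 or more it was 10.2, and with lists of equal length 9.06. Other values of these results stayed within 1.5 times (counts) or within their counting interval. A peak list limits every value to places that passed the caller, and a place missing from 1 list may hold signal below its threshold.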

Other observations

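MTD and ORR1E, both LTR elements, were the repeats most often named under IRF8 peaks. MTD held 396 control and 376 IL-4 peaks, with 86 control-only and 84 IL-4-only, and ORR1E held 236 and 239, with 53 and 57. SINE elements of the B3 family held 64 peaks of the IL-4-only and 38 of the control-only class at B3 and 43 and 22 at B3A, GA-rich low-complexity sequence had 26 and 37, and L3 elements had 11 and 1. Over all peaks the counts were 12804 and 8043, and 9494 and 9243 with lists of equal length.

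IL-4-only peaks with a STAT6-type site were nearest to 1342 genes, of which 26 had 3 or more. After Socs1 and Bmp2k with 5 each, Cd44, a hyaluronan receptor, Dennd1b, 4930578N18Rik and Rasgef1b had 4. Rasgef1b also had 5 control-only peaks. This list was made after its values were seen.

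In the same 200 bp windows and by the same overlap rule, STAT6-type sites stood in 20.0% (19.0 to 21.1) of C/EBPα IL-4-only and 3.41% (2.95 to 3.93) of C/EBPα control-only peaks, and in 17.5% (15.1 to 20.1) of JUNB IL-4-only and 5.53% (4.71 to 6.49) of JUNB control-only peaks. Whether IRF8 differs from these factors was not tested.

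The mitochondrial chromosome held 2 IRF8 peaks in control and 7 after IL-4.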
